A study of Mus musculus with 42 samples.

Results

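The olfactory receptors of mouse chromosome 19 were taken as the rows of the gene table whose GENCODE M21 symbol is Olfr followed by a number and whose gene lies on chromosome 19 of GRCm38. They were 62 of 1026 receptors named in this way and of 44674 genes in all, and each of the 62 is annotated as protein coding. They form 1 group on the chromosome, from Olfr1417 (start 11826803) to Olfr1505 (end 13921866), with 34 on the plus strand and 28 on the minus strand. The libraries are pS6-ribotrap RNA-seq from main olfactory epithelium of young adult C57BL/6NCrl males exposed for 1 h to no odour (5 pools) or to the odour of NCD (6 pools), BFD (5 pools) or HFD (5 pools). NCD is the normal chow, BFD a bacon-flavoured diet that the labels call Bacon, and HFD the lard-based high-fat diet. All mice were wild type and 4 epithelia were combined in each of the 21 pools. From each pool came an input library of the whole homogenate and a pulldown library of the ribosomes that an antibody to phosphorylated ribosomal protein S6 retained. The pulldown/input ratio therefore compares RNA on ribosomes with phosphorylated S6 with RNA of the whole tissue. Nothing in the sources used here says whether the pools of a group were exposed on separate days, so p-values measure the spread between these pools.

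Odorant receptors are G-protein-coupled receptors on the cilia of olfactory sensory neurons, and a mature neuron expresses 1 of them from 1 allele. When an odorant binds, the receptor signals through the G protein subunit Gnal, adenylyl cyclase Adcy3 and a cyclic-nucleotide-gated channel, and the active neuron phosphorylates S6. Messenger RNA of a receptor whose neurons respond is then richer on phosphorylated ribosomes. The receptors of chromosome 19 belong to class II, the tetrapod-type receptors.

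The 42 libraries held 24839600 to 36781600 counts, of which 2850 to 7180 fell on the 62 receptors, and 54 to 61 of the 62 had a count in any one library. Markers of mature sensory neurons were present in every library, 8 of 8, with summed levels of 15140 to 19190 CPM (read counts scaled to a common library size) in the input without odour. Ribosomal RNA took 24.7% ± 3.6 (SD, n = 5) of the input and 19.1% ± 4.9 of the pulldown counts without odour, and group means of 10.5% to 14.2% with odour. It therefore differs between the groups compared, and its part in the results was not tested beyond the covariate fit given below.

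Because similar receptors share reads, the closeness of the sequences comes first. The coding sequences run from 921 to 1077 bases, and the closest relative within the chromosome was between 59.3% and 97.5% identical in coding bases (median 88.1%). There were 13 pairs at or above 94% identity, and in all 13 the longest identical coding stretch exceeded the 75 bases of a read. Of the 62, 43 share under 20% of the 31-base words of their transcripts with another gene. Olfr1424, Olfr1425 and Olfr1426, neighbours on the minus strand, are shown over the 60 coding bases that differ most between them and their neighbour Olfr1427, with every position that differs among the 4 in capitals (GRCm38, minus strand, chr19:12059283-12059342, chr19:12074169-12074228, chr19:12088329-12088388 and chr19:12099170-12099229, all coding).
Olfr1424: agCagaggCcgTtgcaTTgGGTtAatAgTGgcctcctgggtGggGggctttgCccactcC
Olfr1425: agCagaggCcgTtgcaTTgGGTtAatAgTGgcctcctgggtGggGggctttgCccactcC
Olfr1426: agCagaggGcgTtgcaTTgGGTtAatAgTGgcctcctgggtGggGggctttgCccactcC
Olfr1427: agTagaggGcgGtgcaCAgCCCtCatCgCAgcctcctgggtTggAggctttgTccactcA
The first 2 are identical over this stretch, whereas 16 of its positions vary once Olfr1427 is included. Olfr1424 shares 49.2% of its words with other genes, Olfr1425 49.5%, Olfr1426 18.7% and Olfr1427 2.8%, so the estimated counts of the first 2 depend most on how reads were divided.

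Without odour, receptor RNA in the tissue was spread unevenly over the chromosome. Per kilobase of transcript, Olfr1426 was the most abundant in the input at 5.34 ± 0.76 CPM per kb (SD, n = 5), followed by Olfr1463 at 3.64 ± 0.83, Olfr1425 at 3.08 ± 0.25, Olfr1427 at 2.81 ± 0.38 and Olfr1420 at 2.58 ± 0.38. From Olfr1463 to Olfr1420 neighbours in this order differ by less than the larger of their SDs. The median of the 62 was 0.263 CPM per kb. The 10 receptors from Olfr1417 to Olfr1428 took 50.7% of the input CPM of all 62 and 64.5% of their pulldown CPM. At the other end, 12 of the 62 did not pass the filter on low counts, and none of those 12 exceeded 13 counts in any library.

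**Figure D1:**
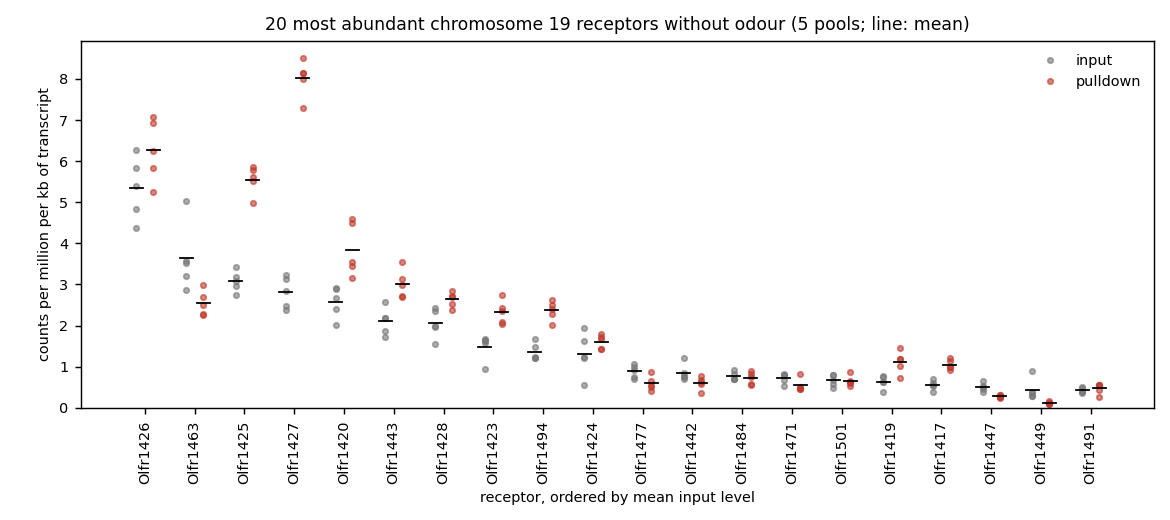
The 20 most abundant chromosome 19 receptors without odour, with input (grey) and pulldown (red) levels in CPM per kb of transcript in each of 5 pools and the mean as a line. Olfr1427 is the fourth in the input, at 2.81, and the first in the pulldown, at 8.02.

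Of the 50 receptors tested, 8 were higher and 4 lower in the pulldown than in the input without odour (edgeR's quasi-likelihood test, Benjamini-Hochberg adjusted p under 0.001 over 21168 genes). Over all genes tested, 19.8% were higher and 16.0% lower, against 16.0% and 8.0% of the chromosome 19 receptors, so neither share exceeds the background. Of the 814 other receptors tested, 97 were higher and 86 lower. At an adjusted p under 0.05, 11 were higher and 13 lower, beside 31% and 28.5% of all genes. The median log2 ratio was -0.16 for the 50, -0.19 for the other receptors and 0.01 for all genes. In bulk tissue, fewer neurons of a receptor and less of its RNA per neuron cannot be told apart, in input or pulldown.

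**Figure D2:**
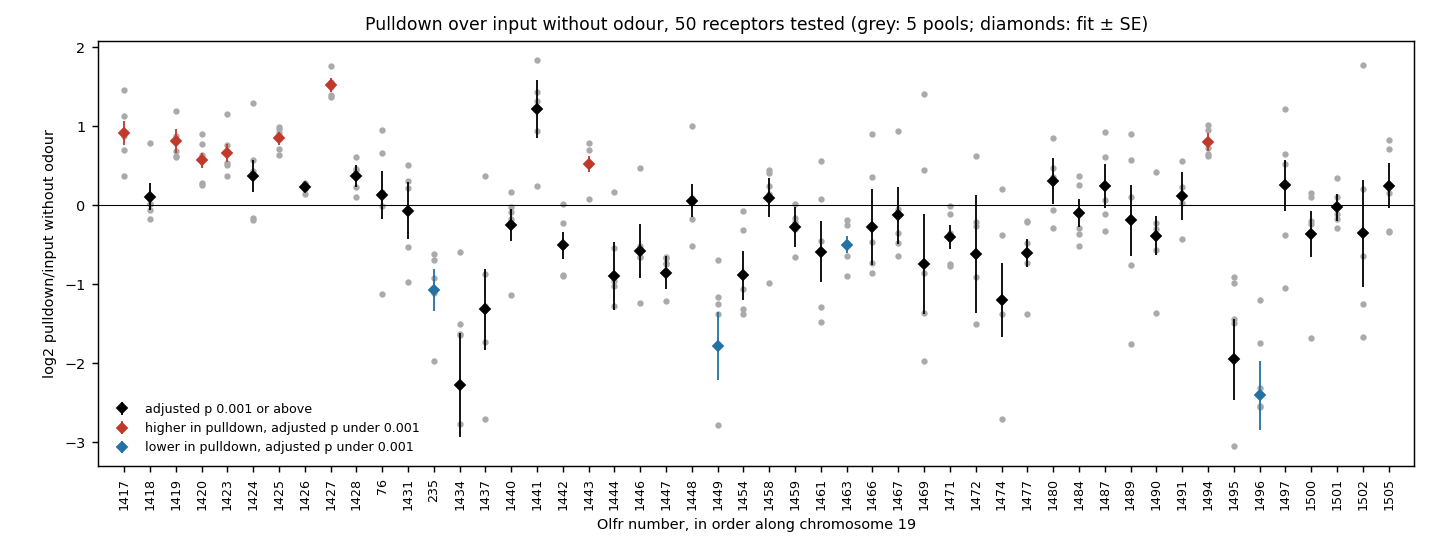
Log2 pulldown/input ratio without odour of the 50 receptors tested, in order along the chromosome, with the 5 pools as grey points and the fitted value ± SE as a diamond. The 8 receptors called higher are red, 6 of them among the first 9 in order, and the 4 called lower are blue.

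Olfr1427 had the highest ratio. Its input level was 7.94, 8.25, 10.5, 10.8 and 9.46 CPM in the 5 pools, and its pulldown level 27.2, 24.4, 27.2, 28.4 and 26.7 CPM. Every pulldown was above every input, and the fitted log2 ratio was 1.52 (SE 0.088), or 2.87-fold, with an edgeR adjusted p of 1.04e-12. Olfr1425, which shares much of its sequence with Olfr1424 and Olfr1426 as shown above, had 6.72, 6.00, 6.44, 7.46 and 6.93 CPM in the input and 12.8, 12.0, 12.6, 12.2 and 10.8 in the pulldown. Its groups did not overlap either (log2 0.85, SE 0.080, edgeR adjusted p = 1.70e-09). Among its near copies, the log2 ratio was 0.23 (SE 0.065, edgeR adjusted p = 0.0031) for Olfr1426 and 0.37 (SE 0.20, edgeR adjusted p = 0.12) for Olfr1424, which did not pass the threshold.

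Olfr1417 and Olfr1418, next to each other on the minus strand, had different ratios although 96.3% of their coding bases are identical. They are set side by side over the 60 coding bases with the most differences, in capitals (GRCm38, minus strand, chr19:11828254-11828313 and chr19:11855181-11855240).
Olfr1417: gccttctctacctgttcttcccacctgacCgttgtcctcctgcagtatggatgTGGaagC
Olfr1418: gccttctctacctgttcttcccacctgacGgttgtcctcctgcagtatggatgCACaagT
Even here 5 positions differ, and the longest stretch without a difference spans 389 coding bases. Olfr1417 had 1.42, 1.95, 2.15, 1.93 and 2.51 CPM in the input and 4.05, 4.36, 3.56, 3.60 and 3.29 in the pulldown, without overlap (log2 0.91, SE 0.15, edgeR adjusted p = 9.92e-06). Olfr1418 had 1.72, 1.27, 1.72, 2.39 and 1.51 CPM in the input and 1.71, 2.24, 1.72, 2.10 and 1.42 in the pulldown, which overlap (log2 0.11, SE 0.17, edgeR adjusted p = 0.59). The difference between the 2 receptors was not itself tested.

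The other receptors higher in the pulldown had smaller changes. Olfr1419 reached a log2 ratio of 0.81 (SE 0.16), Olfr1494 0.80 (SE 0.12), Olfr1423 0.66 (SE 0.11), Olfr1420 0.57 (SE 0.092) and Olfr1443 0.52 (SE 0.10), each with an edgeR adjusted p between 2.61e-06 and 7.49e-05. All 5 had a positive ratio in 5 of 5 pools. For Olfr1443 1 pool lay at 0.08 and the others between 0.51 and 0.78. Olfr1441 had a higher point value, 1.22 (SE 0.36), but on 8 to 23 input counts a library, and did not pass (edgeR adjusted p = 0.0056).

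The 4 receptors called lower ranged widely in abundance. Olfr1463, the second most abundant receptor of the chromosome in the input, had 7.41, 6.64, 8.24, 11.7 and 8.17 CPM there and 5.29, 5.80, 5.23, 6.25 and 6.89 in the pulldown. The groups overlap between 6.64 and 6.89 CPM, and the log2 ratio was -0.50 (SE 0.11, edgeR adjusted p = 0.00030). Olfr1496 had the lowest fitted ratio, -2.41 (SE 0.44, edgeR adjusted p = 3.61e-05), on 16 to 32 input counts and 1 to 8 pulldown counts a library. Its input level was 0.567 to 1.19 CPM and its pulldown level 0.0430 to 0.249 CPM, without overlap. Olfr1449 (log2 -1.78, SE 0.43, edgeR adjusted p = 0.00088) rested on 10 to 31 input and 3 to 5 pulldown counts a library. The other receptors with the lowest ratios, Olfr1434 (-2.27, SE 0.66, edgeR adjusted p = 0.0046) and Olfr1495 (-1.95, SE 0.51, edgeR adjusted p = 0.0019), did not pass, on at most 18 and 24 input counts a library.

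Olfr235 and Olfr1440 are known as receptors for musk odorants. Olfr235 was lower in the pulldown, with 1.38, 1.31, 1.77, 1.40 and 1.41 CPM in the input and 0.302, 0.576, 0.890, 0.883 and 0.834 in the pulldown (log2 -1.07, SE 0.26, edgeR adjusted p = 0.00098). Olfr1440 had a log2 ratio of -0.25 (SE 0.20, edgeR adjusted p = 0.30), and 1 of its 5 pools, at -1.14, lay far below the others. The closest relative of Olfr235 is Olfr1431, 96.5% identical, shown beside it over their 60 most different coding bases (GRCm38, plus strand, chr19:12268344-12268403 and chr19:12209680-12209739).
Olfr235: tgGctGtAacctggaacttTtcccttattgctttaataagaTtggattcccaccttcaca
Olfr1431: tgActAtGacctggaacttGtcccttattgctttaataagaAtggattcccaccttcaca
Olfr1431, with a log2 ratio of -0.07 (SE 0.36), was not called, and 0.49 CPM of input left it with a wide error.

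These calls hold unequally when the fit changes. With 1 pool left out in turn, 7 to 8 receptors remained higher and 1 to 4 lower in number. Olfr1443 was lost without no-odour pool 6 (edgeR adjusted p = 0.0011) and Olfr1419 without no-odour pool 1 (0.0013), whereas Olfr1449 and Olfr235 each lost their call in 16 of 21 such fits, with adjusted p up to 0.013 and 0.0090. In a fit that also held each library's share of ribosomal RNA, 2 were higher, Olfr1427 and Olfr1425 (all genes 10.3%), and 0 lower (all genes 6.79%), while the log2 values of all 12 kept their sign. On the libraries without odour alone, 4 of 42 tested were higher (all genes 12.6%) and 1 lower (12.3%).

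Read along the chromosome, the ratios without odour were positive for 10 of 10 receptors from Olfr1417 to Olfr1428 (median 0.62, range 0.11 to 1.52) and for 11 of the 40 tested from Olfr76 to Olfr1505 (median -0.36, range -2.41 to 1.22). This boundary was set after the values were seen, so no test is given. The same measure in the pools with odour showed the same order. It covers the same genes in the same assay, so it is no independent check of the boundary. In those pools the median ratio of the first run was 0.46 to 0.96 under NCD, 0.36 to 0.84 under BFD and 0.60 to 0.89 under HFD. The median of the second run was -0.20 to -0.10, -0.22 to 0.06 and -0.43 to -0.13, so the runs did not overlap in any of these 16 pools. In the 5 pools without odour the choice of boundary itself separates them.

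**Figure D3:**
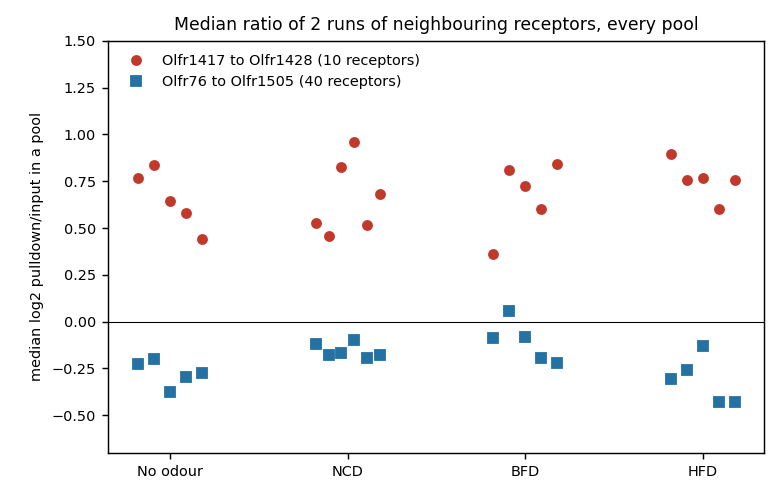
Median log2 pulldown/input ratio in every pool over the 10 receptors from Olfr1417 to Olfr1428 (red circles) and the 40 tested from Olfr76 to Olfr1505 (blue squares), by odour. The red points lie between 0.36 and 0.96 and the blue points between -0.43 and 0.06.

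The first run was also more abundant, with a median input of 5.54 CPM against 0.788. Among receptors of at least 1.72 CPM, the lowest level of the first run, the ratio was positive for 2 of the 9 others of chromosome 19 (median -0.25) and for 162 of 296 on other chromosomes (54.7%, median 0.05). The first run was chosen by its ratios, so this comparison does not test it. Members of the first run are related to each other in part, so they are not independent of one another.

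The genes that carry the receptor signal were mostly higher in the pulldown without odour. Of the 14 transduction genes listed, 9 were higher and 0 lower by edgeR, among them Adcy3 (log2 0.77, SE 0.064), the channel subunit Cnga2 (0.64, SE 0.066) and the calcium-activated chloride channel Ano2 (0.44, SE 0.060), while Gnal (-0.25, SE 0.064) missed the threshold with an edgeR adjusted p of 0.0017. The list median was 0.36. Of the 9 genes of receptor choice, 8 were higher, led by Atf5 (1.45, SE 0.13) and Lhx2 (1.40, SE 0.087), with a median of 0.46. Of the 3 trafficking genes, which bring receptors to the membrane, Rtp2 was lower (-0.33, SE 0.055) and 0 were higher. Of 8 activity-dependent genes, 6 were higher, with Fosb at 1.83 (SE 0.18) and Nr4a1 at 1.39 (SE 0.087). The Ms4a genes, a family of chromosome 19 that includes atypical chemoreceptors, had 7 of 19 members tested. Ms4a7 was higher (1.02, SE 0.13) and Ms4a1, a B cell gene, lower (-1.48, SE 0.25). Which cells carried the RNA of Ms4a7 was not tested. All genes tested had a median of 0.01.

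Markers of other cells differed between pulldown and input too. Those of supporting cells were lower in the pulldown for 4 of 4 genes (summed 1037 to 1814 CPM against 3841 to 5703 in the input) and those of horizontal basal cells for 3 of 3. Ensheathing glia markers were lower for 3 of 4. Erythroid markers were higher for 5 of 5 (1562 to 2263 CPM against 362 to 719), macrophage markers for 4 of 5 and neutrophil markers for 3 of 5. The neutrophil marker Ltf was lower (log2 -0.26, SE 0.061). Immature sensory neuron markers were higher for 3 of 4 and globose basal cell markers for 2 of 5, and 0 of 4 Bowman gland markers passed in either direction. Their part in the receptor ratios was not tested.

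Under odour, 0 of the 50 receptors passed the threshold in either direction for any of the 3 odours (edgeR adjusted p under 0.001). The share of all genes called higher was 0.359% under NCD, 2.47% under BFD and 0.699% under HFD, and those shares of 50 receptors amount to at most about 1 gene. Of all 864 receptors tested, 17, 33 and 12 were higher. At an unadjusted p under 0.05, 9, 8 and 7 of the 50 were higher, beside 13.9%, 17.2% and 14.4% of all genes, and 0, 0 and 2 lower, beside 14.0%, 16.4% and 15.2%. DESeq2 with the same design also gave 0 for each odour. The median log2 change was 0.12, 0.19 and 0.11, against 0.24, 0.30 and 0.28 for the other receptors and between -0.01 and 0.00 for all genes.

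The precision of these changes was limited. The 95% interval taken from the SE reached to each side of the change by a median of 0.70 under NCD, 0.73 under BFD and 0.74 under HFD on the log2 scale, and the interval lay wholly within 1 of 0 for 24, 19 and 25 of the 50. The 3 comparisons share the 5 pools without odour, so their values are given side by side only. In the pulldown, the summed mature neuron markers were 16330 to 19890 CPM without odour and 21330 to 24180, 18050 to 24980 and 19480 to 22490 CPM with NCD, BFD and HFD, and macrophage markers 216 to 251 CPM without odour and 139 to 170 CPM with odour. Of the listed genes, Omp and the G protein subunit Gng13 were higher under BFD (log2 change 0.64, SE 0.10, and 1.33, SE 0.24), the glial gene Fabp7 was higher under BFD and HFD (0.60, SE 0.12, and 1.05, SE 0.12), and Arc, an activity-dependent gene, was lower under both (-0.97 and -1.12, each SE 0.20), by edgeR at the same threshold. None of the receptor choice, trafficking or Ms4a genes passed under any odour. The part of these marker shifts in the changes below was not tested, and values from the fit with ribosomal RNA are given below.

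**Figure D4:**
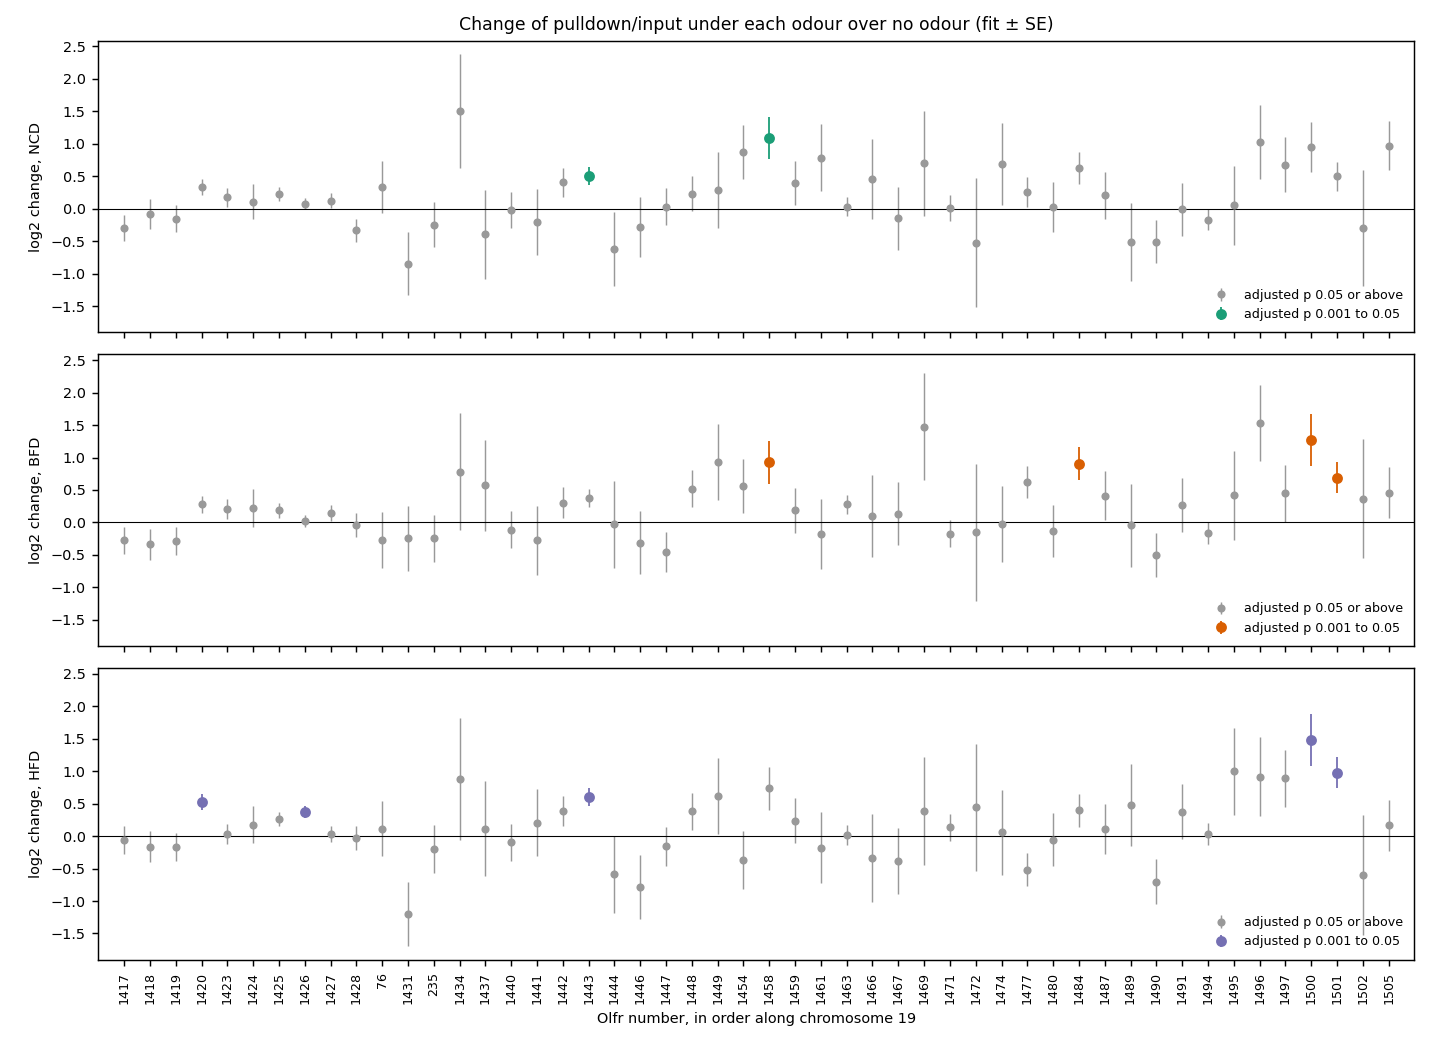
Log2 change of the pulldown/input ratio under NCD, BFD and HFD odour over no odour for the 50 receptors tested, in order along the chromosome (fit ± SE). Coloured points have an adjusted p between 0.001 and 0.05 and number 2, 4 and 5. All of them are positive.

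At the looser adjusted p under 0.05, 2 receptors were higher under NCD (all genes 6.79%), 4 under BFD (12.0%) and 5 under HFD (7.67%), and 0 were lower. These shares of the 50 are near or below those of all genes. The receptors behind them were 7 in all and are described as the members nearest to the threshold.

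Olfr1443 had the smallest p under NCD and under HFD. Its log2 ratio was 0.51, 0.08, 0.52, 0.70 and 0.78 in the pools without odour. It was 0.58 to 1.29 (median 1.07) under NCD, 0.59, 1.08, 1.02, 0.76 and 0.99 under BFD, and 1.17, 1.12, 1.32, 0.97 and 1.00 under HFD. The pools above the highest pool without odour were all 5 for HFD, 5 of 6 for NCD and 3 of 5 for BFD. The change was 0.50 (SE 0.13, edgeR adjusted p = 0.015), 0.37 (SE 0.14, adjusted p = 0.057) and 0.60 (SE 0.14, adjusted p = 0.0055). Its pulldown level was 13.1 ± 1.5 CPM without odour and 18.0 ± 1.8, 17.4 ± 3.1 and 19.7 ± 1.0 with the odours (SD, n = 5, 6, 5 and 5), while the input stayed between group means of 8.82 and 9.28 CPM.

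Olfr1500 and Olfr1501, neighbours near the far end of the group, both had positive changes under each odour. They are not near copies, at 65.3% coding identity. The closest relative of Olfr1501 is Olfr1504, 95.9% identical, with a longest identical stretch of 91 coding bases. Olfr1504 did not pass the filter on low counts. Of its words, Olfr1501 shares 5.99% with other genes and Olfr1500 0.54%. The 2 neighbours are shown over 60 coding bases aligned without gaps, of which 15, in capitals, differ (GRCm38, minus strand, chr19:13828005-13828064 and chr19:13838785-13838844). This stretch does not stand for the whole pair.
Olfr1500: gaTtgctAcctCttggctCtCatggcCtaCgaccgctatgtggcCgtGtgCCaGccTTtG
Olfr1501: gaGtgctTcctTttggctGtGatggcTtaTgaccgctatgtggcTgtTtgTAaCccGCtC
Olfr1501 had log2 ratios of 0.35, -0.12, -0.17, 0.11 and -0.28 without odour, 0.04 to 0.98 (median 0.41) under NCD, 0.37, 0.64, 0.46, 0.74 and 1.03 under BFD and 1.71, 0.49, 0.53, 0.63 and 1.43 under HFD. All 5 BFD and all 5 HFD pools exceeded every pool without odour. The change was 0.50 (SE 0.23, edgeR adjusted p = 0.15) under NCD, 0.69 (SE 0.24, adjusted p = 0.039) under BFD and 0.97 (SE 0.24, adjusted p = 0.0078) under HFD.

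Olfr1500 rested on fewer counts, 4 to 19 in a pulldown library without odour. Its log2 ratios were -0.24, 0.10, -1.69, 0.15 and -0.20 without odour, 0.20 to 1.11 (median 0.43) under NCD, 0.87, 0.86, 1.35, 0.83 and 0.21 under BFD and 0.97, 0.78, 0.88, 1.66 and 0.87 under HFD. All 16 pools with odour lay above all 5 without. The change was 0.95 (SE 0.38, edgeR adjusted p = 0.100), 1.27 (SE 0.40, adjusted p = 0.023) and 1.48 (SE 0.40, adjusted p = 0.013). With 1 pool left out it ranged from 0.98 to 1.45 under BFD (edgeR adjusted p 0.017 to 0.071, at or above 0.05 in 2 of 21 fits and largest without BFD pool 3) and from 1.18 to 1.64 under HFD (0.013 to 0.036).

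Olfr1420 and Olfr1426, both from the abundant first run, followed Olfr1443 in order of p under HFD. Olfr1420 had log2 ratios of 0.77, 0.64, 0.25, 0.90 and 0.28 without odour and 1.20, 0.79, 1.28, 0.98 and 1.22 under HFD, where 4 of 5 pools exceeded every pool without odour (change 0.53, SE 0.13, edgeR adjusted p = 0.0070). Olfr1426 had 0.27, 0.27, 0.21, 0.14 and 0.28 without odour and 0.51, 0.45, 0.65, 0.59 and 0.80 under HFD, without overlap. Its change was 0.37 (SE 0.090, edgeR adjusted p = 0.0077) under HFD, beside 0.08 (SE 0.087) under NCD and 0.03 (SE 0.091) under BFD. The pulldown counts were also tested with DESeq2, with each gene scaled inside the model by the input of the same pool. This resembles the study's division by input before its test but is not the same model. Here Olfr1420, Olfr1426, Olfr1443 and Olfr1501 passed the threshold under HFD, with 2.72% of all genes called higher. Under NCD or BFD 0 receptors passed, and the share of all genes was not computed there.

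**Figure D5:**
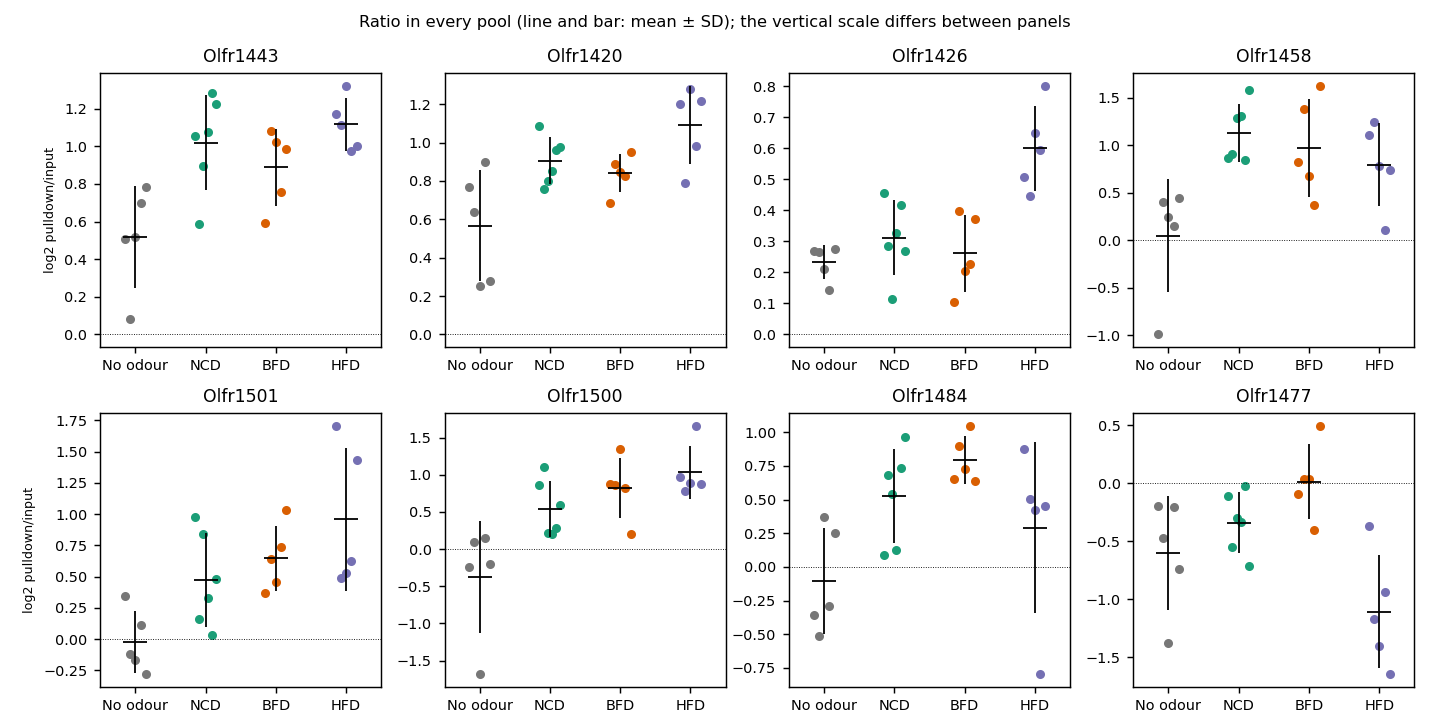
Log2 pulldown/input ratio in every pool for 8 receptors named under odour, with the mean ± SD; the vertical scale differs between panels. The HFD pools of Olfr1426 lie between 0.45 and 0.80, above all 5 pools without odour, and those of Olfr1477 between -1.65 and -0.37.

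Olfr1458 and Olfr1484 complete the 7. Olfr1458 had log2 ratios of -0.99, 0.40, 0.25, 0.15 and 0.44 without odour and 0.84 to 1.58 (median 1.10) under NCD, where all 6 pools exceeded every pool without odour. Its BFD pools were 0.82, 1.38, 0.68, 0.37 and 1.63 and its HFD pools 1.11, 1.24, 0.78, 0.11 and 0.74. The change was 1.09 (SE 0.32, edgeR adjusted p = 0.025), 0.93 (SE 0.33, adjusted p = 0.045) and 0.73 (SE 0.33, adjusted p = 0.13), and without no-odour pool 1, the low one, the NCD change was 0.86 with an adjusted p of 0.068. That adjusted p was at or above 0.05 in 3 of 21 fits with a pool left out, and that of Olfr1443 under NCD in 1. Under BFD its adjusted p was at or above 0.05 in 8 of 21 fits with a pool left out, and that of Olfr1501 in 8 as well.

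Olfr1484 and its near copy Olfr1477, 96.5% identical, gave different values under HFD. They are compared over 60 coding bases with 7 differences in capitals (GRCm38, plus strand, chr19:13585873-13585932 and chr19:13502912-13502971).
Olfr1484: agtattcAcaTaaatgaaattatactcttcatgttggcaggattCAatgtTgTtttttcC
Olfr1477: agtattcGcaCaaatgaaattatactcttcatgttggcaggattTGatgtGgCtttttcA
Olfr1484 had log2 ratios of -0.36, -0.51, 0.37, -0.29 and 0.25 without odour, 0.09 to 0.96 (median 0.61) under NCD, 0.65, 0.89, 0.73, 1.05 and 0.64 under BFD and 0.88, 0.51, 0.42, -0.80 and 0.45 under HFD. Its change under BFD was 0.91 (SE 0.25, edgeR adjusted p = 0.011). With ribosomal RNA in the fit, the adjusted p under BFD was 0.10 for Olfr1484, 0.13 for Olfr1501 and 0.29 for Olfr1500, all above 0.05. In the same fit it was 0.015 for Olfr1443 and 0.027 for Olfr1458 under NCD, and 0.0042, 0.0062 and 0.013 for Olfr1443, Olfr1420 and Olfr1426 under HFD. Values from this fit are not given for Olfr1500 and Olfr1501 under HFD or for Olfr1458 under BFD. Olfr1477 had -0.20, -0.47, -1.38, -0.21 and -0.73 without odour, -0.72 to -0.02 (median -0.32) under NCD, -0.09, 0.04, 0.04, -0.40 and 0.50 under BFD and -0.37, -1.17, -1.40, -0.94 and -1.65 under HFD. The counts of this pair rest on the division of shared reads, since Olfr1484 shares 32.5% and Olfr1477 29.9% of its words with other genes.

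Between odours, 0 of the 50 receptors passed the threshold for BFD against NCD, HFD against NCD or HFD against BFD (edgeR adjusted p under 0.001), beside 0.00945%, 0.0236% and 0.0378% of all genes. At an unadjusted p under 0.05 the numbers were 0, 5 and 3 of 50, against 7.24%, 4.62% and 8.0% of all genes. The nearest to the threshold was Olfr1477, lower by a log2 value of -1.13 (SE 0.24) under HFD than under BFD (edgeR adjusted p = 0.068), with only the highest HFD pool, -0.37, inside the range of the BFD pools. Olfr1426 was higher under HFD than under BFD by 0.34 (SE 0.089, edgeR adjusted p = 0.22). The interval of the difference lay within 1 of 0 on the log2 scale for 27, 28 and 27 of the 50 in these comparisons, and for the rest a 2-fold difference was not bounded.

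In the input, 0 of 49 receptors tested differed between any odour and none (edgeR adjusted p under 0.001), whereas 12.0% of all 20451 genes did, among them the activity-dependent genes Fos (1.54, SE 0.094) and Nr4a1 (1.27, SE 0.079), both higher with odour. At an unadjusted p under 0.05 there were 2, against 45.0% of all genes, namely Olfr1419 (log2 0.32, SE 0.14) and Olfr1444 (0.61, SE 0.27). The median change of the 49 was 0.07 and the range -0.48 to 0.61. As a share of all receptor counts, the 62 took 5.07% ± 0.06 of the input without odour and 5.34% ± 0.09, 4.98% ± 0.04 and 4.93% ± 0.11 with NCD, BFD and HFD (SD, n = 5, 6, 5 and 5). In the pulldown the share was 5.64% ± 0.20 without odour and 5.59% ± 0.11, 4.93% ± 0.06 and 5.28% ± 0.18 with the odours. All 5 BFD pulldowns, at most 4.99%, and all 5 HFD pulldowns, at most 5.457%, lay below all pulldowns without odour, at least 5.469%. The NCD pulldowns, 5.43% to 5.72%, overlapped them. This share is relative to the counts of all receptors. Relative to library totals, the 62 together took 154 to 193 CPM in the BFD pulldowns and 172 to 204 CPM in the HFD pulldowns. Without odour they took 127 to 167 CPM. A lower share is therefore not a lower level of the 62 in the pulldown.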

How the data were processed

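RNA-seq of pS6 pulldown and input from 21 pools (42 libraries) was analysed. The authors amplified the RNA, sequenced pairs of 75-base reads, quantified genes with Salmon on GRCm38 through nf-core rnaseq, and deposited estimated counts per gene without normalization. The annotation release is not given in the sources used here, and names came from GENCODE M21 for 44118 of 44674 genes. Of the members' values 41.7% were not whole, as reads matching several genes are divided by estimation. The authors' own division by input and DESeq2 1.26 test are not part of the deposited expected counts.

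Counts were rounded, filtered with filterByExpr (minimum count 10, 21168 genes kept), scaled by TMM and fitted with edgeR 4.0.16 (R 4.3.3, limma 3.58.1), robust quasi-likelihood, with pool terms and 1 pulldown term per odour. The common biological coefficient of variation was 12%. Tests were two-sided, adjusted by Benjamini-Hochberg over all genes, with the study's threshold of 0.001. Input libraries were fitted separately. Pool ratios are differences of log2 CPM with a prior count of 2. SE is the log2 value over the square root of F, and 95% intervals are normal intervals from it. DESeq2 1.42.0, other filters, size factors, blocks and covariates and leaving out each pool were alternatives. The main fit, both DESeq2 fits, the fit without a pool term and the input fit were run on simulated counts.

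Per the methods, pulldown and input of a pool come from the same epithelia. Their deviations from group means correlated with a median of 0.0142 over 21 pools, against -0.00416 between pools. No libraries of a group were duplicates: over 90 pairs, chi-square divided by its degrees of freedom was at least 3.19. Coding sequences came from GENCODE M21, and identity was computed on coding bases because no protein table was used here. The 2 named Olfr pseudogenes of the chromosome in the table fall outside the rule for symbols. Named receptors were those past the threshold, the 3 with the smallest p under each odour, the 5 most abundant, the 3 highest and 3 lowest ratios, and Olfr235 and Olfr1440. Olfr1418, Olfr1424, Olfr1431, Olfr1444 and Olfr1477, the others with values, and the boundary at Olfr1428 were chosen after the values were seen. The members and gene lists were chosen with earlier results of these data known.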

Additional observations from a re-analysis of the deposited data

Results flagged for a closer look

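In 8 of 84 groups of pools (21 receptors by 4 odours), 1 pool lay far from the others of its group on Dixon's criterion, which chance alone meets in about 1 of 20 groups. No explanation was tested.

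Among pools without odour, Olfr1500 stood at -1.69 in pool 3 (median of the other pools -0.05), Olfr1458 at -0.99 in pool 1 (0.32), Olfr1495 at -3.05 in pool 4 (-1.21) and Olfr1440, a musk receptor, at -1.14 in pool 4 (-0.05). Both of the first 2 sit under a comparison with odour described above. Among pools with odour, Olfr1449 stood at -2.54 in NCD pool 6 (-0.97), Olfr1484 at -0.80 in HFD pool 5 (0.48), Olfr1500 at 1.66 in the same HFD pool 5 (0.88) and Olfr1434 at 0.57 in HFD pool 3 (-1.39).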

How the results depend on the processing

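Without odour, the count of receptors higher in the pulldown moved from 8 to 2 once the share of ribosomal RNA entered the fit and to 4 of 42 tested on the libraries without odour alone. The count lower moved from 4 to 0 and 1 in the same fits and to 13 at an adjusted p under 0.05. With 1 pool left out the counts ranged from 7 to 8 higher and 1 to 4 lower. Olfr1463 lost its call without no-odour pool 1, 3 or 4. Under odour, the counts of 0 became 2 (NCD), 4 (BFD) and 5 (HFD) at an adjusted p under 0.05. With DESeq2 on pulldown counts scaled by input inside the model, the count under HFD became 4, and the cause was not tested. Other filters, size factors, DESeq2 with the same design and the fit without a pool term left these counts within 1.5 times. Signs were compared only for the named receptors, each in the comparison for which it was named, and none changed under any alternative run. Replicate numbers did not pair pools across odours (median correlation 0.0205 for shared against -0.00177 for different numbers, and 10 of 54 best matches shared a number), and with them as a block the counts stayed at 0 for each odour. Depth limits most receptors: in the pulldown without odour the median over tested receptors and libraries was 24 counts, and the 95% interval of a change lay within 2-fold either way for 19 to 25 of the 50.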
